A study of Homo sapiens with 6 samples.

Results

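Vimentin (VIM), nestin (NES) and 8 keratin genes (KRT7, KRT8, KRT18, KRT19, KRT20, KRT23, KRT80 and KRT81) were listed by gene symbol, and 9 of these 10 are analysed here among the 35856 genes of the deposited expression table. KRT20 is not analysed here. All 9 passed the filter on low counts and were among the 20741 genes tested. The RNA came from HCCLM3, an established human hepatocellular carcinoma cell line, in 2 groups of 3 libraries. In the group LINC00862, the cells carried a vector expressing LINC00862, a long noncoding RNA, and in the group NC they carried the empty vector. The series asked which RNAs and pathways changed with LINC00862. The labels give both groups the same cell line and transfection with a vector, and no value for untransfected cells is given. Whether the libraries of both groups come from the same line was not tested, and the groups differed widely in genes that mark cell identity, so a difference between them cannot be assigned to LINC00862 from these libraries alone. The sources do not state that the 3 libraries of a group came from separate cultures, so p-values measure the spread between libraries, which may be technical.

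Intermediate filaments are cytoplasmic and nuclear polymers that give cells mechanical strength. Keratins are the filaments of epithelial cells and assemble only as pairs of an acidic type I chain with a basic type II chain, and KRT8 with KRT18 is the pair of hepatocytes and other simple epithelia. Vimentin forms homopolymers in mesenchymal cells, and nestin, a filament protein of progenitor cells, copolymerises with vimentin. In liver, KRT7 and KRT19 mark the bile duct epithelium, and gain of vimentin with loss of keratins is widely read as a sign of epithelial-mesenchymal transition.

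The total counts lay between 58241123 and 68229070 per library. LINC00862 itself was counted 11, 21 and 6 times in NC libraries 1, 2 and 3 and 145, 121 and 76 times in LINC00862 libraries 1, 2 and 3, so it was higher in each library labelled LINC00862, at an FPKM of 0.449 ± 0.120 (SD, n = 3). FPKM counts fragments relative to transcript length and to the mapped fragments of the library, and is the scale used here to compare levels between genes. Genes were called at an adjusted p under 0.05 in the quasi-likelihood test of edgeR, adjusted over all genes tested by the Benjamini-Hochberg method. This rule called 64.2% of all genes tested, with 34.4% higher and 29.8% lower in LINC00862 (7145 and 6176 genes). The balance depended on the scaling, with 8060 higher and 5291 lower by upper quartile, and 6437 higher and 6826 lower by library size alone. With TMM, the median log2 fold change of all genes was 0.11. The groups differed in markers of several cell types. The summed FPKM of 8 hepatocyte markers lay between 2.94 and 3.46 in NC and between 539 and 618 in LINC00862, with albumin (ALB) counted 0, 0 and 7 times in NC and 423, 394 and 282 times in LINC00862. Of the 7 hepatocyte markers tested, 6 rose and 1 fell, and the fibrinogen beta chain (FGB) held most of the sum, at a mean FPKM of 1.75 in NC and 550 in LINC00862. The marker that fell was SERPINA1, from a mean FPKM of 1.29 to 0.095. HNF4A, APOB and TTR rose but stayed low, at 0.0447, 0.144 and 0.464 in LINC00862. THY1, a surface protein of fibroblasts and some tumour cells, had a mean FPKM of 42.2 in NC and 0.101 in LINC00862.

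VIM was the most abundant of the 9 genes in NC and fell in LINC00862. Its FPKM was 481, 571 and 564 in NC and 3.66, 3.81 and 3.85 in LINC00862. The mean was 539 ± 50.1 (SD, n = 3) in NC and 3.77 ± 0.102 (SD, n = 3) in LINC00862, a 143-fold difference. The groups did not overlap, and the LINC00862 libraries were within a narrow range of each other. On the log2 scale VIM changed by -6.99 (SE 0.22, 95% interval -7.49 to -6.48, adjusted p = 4.69e-08, edgeR). In counts, VIM had 164852, 193003 and 194873 reads in NC and 1449, 1305 and 1339 in LINC00862, so the low level still rested on at least 1305 reads in each library. By FPKM, VIM ranked between 46 and 56 among all genes in the NC libraries and between 6239 and 6859 in the LINC00862 libraries. In bulk RNA, fewer cells expressing a gene and less of its RNA per cell cannot be told apart.

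NES, the vimentin partner, also fell, from a level far below that of VIM. Its FPKM was 0.701, 0.451 and 0.627 in NC and 0.0508, 0.0802 and 0.0821 in LINC00862. The groups did not overlap, and the mean was 8.35-fold lower in LINC00862. Its log2 fold change was -2.85 (SE 0.36, 95% interval -3.68 to -2.03, adjusted p = 0.000127, edgeR). Its counts were 259, 164 and 233 in NC and 22, 30 and 31 in LINC00862.

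The promoter sequences of VIM and NES are shown because these 2 genes fell together and because the RefSeq transcription start lies at the gene start given in the deposited table. Each run holds the 250 bases before the start, from RefSeq on GRCh38.p14, 5′ to 3′ on the strand of the gene. VIM lies at chr10:17227991-17228240 (+) and NES at chr1:156677408-156677657 (-), and capitals mark the GC box GGGCGG on either strand, the letters bound by factors of the Sp1 family:
VIM: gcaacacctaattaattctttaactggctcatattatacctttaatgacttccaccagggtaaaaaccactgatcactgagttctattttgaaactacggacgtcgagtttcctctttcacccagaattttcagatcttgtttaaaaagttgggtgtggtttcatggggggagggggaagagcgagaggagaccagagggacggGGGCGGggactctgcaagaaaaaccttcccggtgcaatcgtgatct
NES: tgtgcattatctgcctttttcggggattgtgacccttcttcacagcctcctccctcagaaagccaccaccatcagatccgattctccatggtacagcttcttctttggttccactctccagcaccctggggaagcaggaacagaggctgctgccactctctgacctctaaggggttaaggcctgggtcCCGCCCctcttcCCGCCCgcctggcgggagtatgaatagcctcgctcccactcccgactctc
The VIM window held 1 GC box and the NES window held 2, and 42.6% of 35116 RefSeq promoters of the same length held at least 1. The GC content was 46.0% for VIM and 58% for NES, against a median of 58% over all promoters. Neither window held the E-box letters CAGGTG (17.5% of promoters), the AP-1 letters TGANTCA (6.57%), the TATA box TATAAA (10.7%) or the grainyhead-type letters AACCGGTT (0.117%) on either strand. Of the 10 listed genes, 4 (VIM, NES, KRT8 and KRT20) matched a promoter entry. A match describes letters and is not a binding site.

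The RNA of the opposite strand at VIM fell as well. VIM-AS1 (chr10:17214239-17229985, minus strand) overlaps the first 1745 bases of VIM and was counted 132, 134 and 136 times in NC and 14, 4 and 6 times in LINC00862. Its log2 fold change was -3.98 (SE 0.48, adjusted p = 9.77e-05, edgeR). AL133415, a second gene opposite to VIM, was counted 21, 15 and 8 times in NC and 0 times in each LINC00862 library, at least 4.49-fold lower over the group, and was too low to be tested. TRDMT1, a tRNA methyltransferase gene and the nearest gene at lower coordinates, fell with a log2 fold change of -2.26 (SE 0.31, adjusted p = 0.00019). ST8SIA6, the nearest at higher coordinates, was not called (log2 fold change 0.15, adjusted p = 0.869). The library protocol marks the strand, but the strand setting used for counting is not given in the sources used here, so reads of VIM and of the genes opposite to it could not be told apart with certainty.

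**Figure D1:**
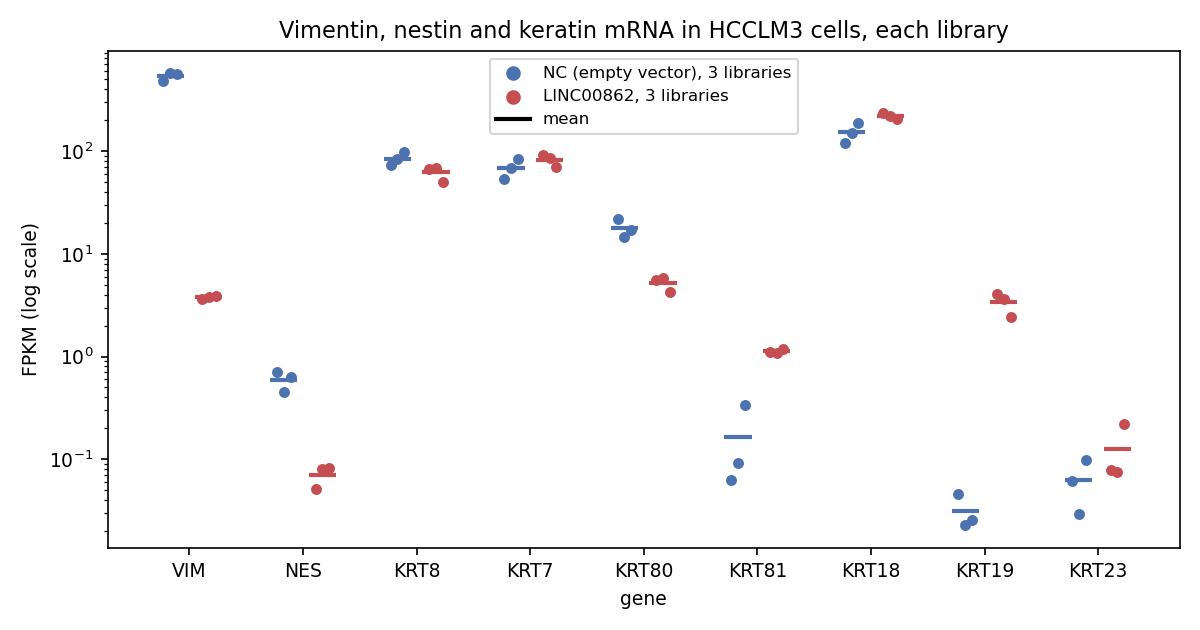
FPKM of each gene in each library on a log axis, with NC in blue, LINC00862 in red and a line at each group mean. VIM fell from 481 to 571 in NC to 3.66 to 3.85 in LINC00862, KRT19 lay between 2.41 and 4.04 in LINC00862 against at most 0.0461 in NC, and KRT7 and KRT23 overlapped between the groups.

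Among the type I keratins, KRT18 rose slightly and KRT19 rose from near absence. KRT18, the partner of KRT8 in hepatocytes, had an FPKM of 120, 151 and 189 in NC and 235, 218 and 203 in LINC00862. The groups did not overlap, and their nearest libraries were NC 3 and LINC00862 3. The log2 fold change was 0.67 (SE 0.21, 95% interval 0.20 to 1.15, adjusted p = 0.0193, edgeR). Without LINC00862 replicate 1 it was 0.63 with an adjusted p of 0.068, and without NC replicate 2 it was 0.67 with an adjusted p of 0.06, so the call was lost in both cases. The 33 KRT18 pseudogenes listed had counts of 0.218% to 0.480% of that of KRT18, and adding them left the log2 fold change at 0.67.

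KRT19, the smallest keratin and a marker of bile duct and progenitor cells, was counted 8, 5 and 4 times in NC and 724, 568 and 379 times in LINC00862. Its FPKM was 0.0461, 0.0228 and 0.0255 in NC and 4.04, 3.67 and 2.41 in LINC00862. Every LINC00862 library was above every NC library, and the mean was 107-fold higher. Its log2 fold change was 6.67 (SE 0.37, 95% interval 5.82 to 7.51, adjusted p = 8.23e-07, edgeR). Even so, KRT19 made up at most 0.876% of the summed FPKM of the cytoplasmic filament genes in any LINC00862 library. No row of the table was named as a KRT19 pseudogene.

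KRT23, another type I keratin, was low in both groups, with counts of 12, 6 and 20 in NC and 19, 15 and 44 in LINC00862. Its FPKM overlapped between the groups, at 0.0295 to 0.0989 in NC and 0.0745 to 0.222 in LINC00862. The log2 fold change was 1.17 with a 95% interval of -0.40 to 2.75 (adjusted p = 0.168, edgeR), which takes in both no change and a rise of several-fold. Without LINC00862 replicate 3, the library with 44 counts, it was 0.44 (adjusted p = 0.645). AC004231, on the opposite strand over the whole of KRT23, was counted 0 times in each NC library and 148, 112 and 95 times in LINC00862, at least 41.6-fold higher over the group.

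Among the type II keratins, KRT80 fell, KRT81 rose, and KRT7 and KRT8 were not called. KRT8, the type II partner of KRT18, had an FPKM of 72.8, 83.2 and 97.5 in NC and 67.5, 69.2 and 50.0 in LINC00862. All 3 LINC00862 libraries lay under the NC libraries, but the log2 fold change of the counts was only -0.28 (SE 0.19, 95% interval -0.71 to 0.14, adjusted p = 0.211, edgeR). Without NC replicate 1 it was -0.42 with an adjusted p of 0.0357. The 25 KRT8 pseudogenes listed had counts of 1.01% to 1.47% of that of KRT8 in NC and 2.43% to 2.82% in LINC00862, and with them added the log2 fold change was -0.26 (adjusted p = 0.24).

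KRT7, a type II keratin of ducts and glands, had an FPKM of 53.7, 68.5 and 83.7 in NC and 91.0, 85.7 and 69.7 in LINC00862. The groups overlapped, and the log2 fold change was 0.42 (SE 0.21, 95% interval -0.05 to 0.88, adjusted p = 0.108, edgeR). Without NC replicate 3, or with upper quartile scaling, it was 0.62 and was called, with adjusted p of 0.0202 and 0.0308. KRT7-AS, transcribed from the opposite strand over 2401 bases of KRT7, was counted 286, 208 and 165 times in NC and 1251, 970 and 867 times in LINC00862, and rose with a log2 fold change of 2.32 (SE 0.23, adjusted p = 2.37e-05). KRT7 and KRT7-AS share the strand limit given for VIM. KRT86 overlaps KRT7 by 2887 bases on the same strand in the deposited coordinates, where strand cannot separate their reads.

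KRT80, a type II keratin expressed in many epithelia, had an FPKM of 21.9, 14.7 and 17 in NC and 5.62, 5.86 and 4.23 in LINC00862. The lowest NC library was well above the highest LINC00862 library, and the mean was 3.41-fold lower in LINC00862. KRT80 had a log2 fold change of -1.59 (SE 0.17, 95% interval -1.97 to -1.22, adjusted p = 3.66e-05, edgeR). LINC00592, which spans the whole of KRT80 on the opposite strand, had at most 11 counts in any library.

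KRT81, a hair-type keratin of type II, had an FPKM of 0.0635, 0.0919 and 0.337 in NC and 1.10, 1.08 and 1.18 in LINC00862. NC library 3, with 44 counts, stood above NC libraries 1 and 2, with 9 and 12 counts, but the groups did not overlap. KRT81 had a log2 fold change of 2.88 (SE 0.60, 95% interval 1.51 to 4.24, adjusted p = 0.00245, edgeR), and without NC replicate 3 it was 3.96.

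KRT81 could not be read on its own, because its neighbour KRT86 is a near copy that overlaps it on the opposite strand over all 5622 bases of the KRT81 gene. The coding sequences of KRT81 and KRT86 were 90.1% identical, and shared an unbroken run of 605 bases, from coding base 61 to 665 in both. Of all windows of 150 bases, the length of 1 read, 25.6% of the KRT81 transcript also occurred in KRT86, and 22.1% of the KRT86 transcript in KRT81, whereas none of those of VIM, NES, KRT7, KRT8, KRT18, KRT19, KRT23 or KRT80 occurred in another of the filament genes compared. KRT86 was counted 0, 4 and 7 times in NC and 280, 227 and 143 times in LINC00862, with a log2 fold change of 5.89 (SE 0.72, adjusted p = 9.77e-05, edgeR). KRT83, the next gene of the hair-type block, named after its values were seen, was counted 0 times in each NC library and 147, 162 and 65 times in LINC00862, at least 43.5-fold higher over the group. With the counts of KRT81, KRT83 and KRT86 added together, the sums were 9, 16 and 51 in NC and 590, 528 and 361 in LINC00862, and the log2 fold change was 4.33 (SE 0.59, adjusted p = 0.000193). No window of 150 bases of KRT83 occurred in another of the filament genes compared, so its counts widen this sum beyond reads that KRT81 and KRT86 may share. AC121757, the nearest gene at higher coordinates on the strand of KRT81, rose too, from 0, 8 and 4 counts to 617, 486 and 458. It lies within KRT86 on the opposite strand, so the strand limit given for VIM holds, and its reads may not be separate from those of KRT86.

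In all, 3 of the 9 genes rose (KRT18, KRT19 and KRT81), 3 fell (VIM, NES and KRT80) and 3 were not called (KRT7, KRT8 and KRT23), against 64.2% called over all genes. Their median log2 fold change was 0.42 against 0.11 for all genes tested. The FPKM of 7 of the 9 did not overlap between the groups, 3 higher and 4 lower in LINC00862, against 71.1% of all genes tested, with 34.4% higher and 36.6% lower. For any one gene, exact permutation of 3 libraries against 3 reaches no two-sided p under 0.1.

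The order of the levels changed between the groups. By mean FPKM, NC had VIM, KRT18, KRT8, KRT7, KRT80, NES, KRT81, KRT23 and KRT19 in falling order, and the ranges of KRT8 and KRT7, of KRT81 and KRT23, and of KRT23 and KRT19 overlapped. LINC00862 had KRT18, KRT7, KRT8, KRT80, VIM, KRT19, KRT81, KRT23 and NES, and the ranges of VIM and KRT19 and of KRT23 and NES overlapped. No other neighbours in either order overlapped. VIM thus went from first to the fifth place, and KRT19 from the last to the sixth.

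**Figure D2:**
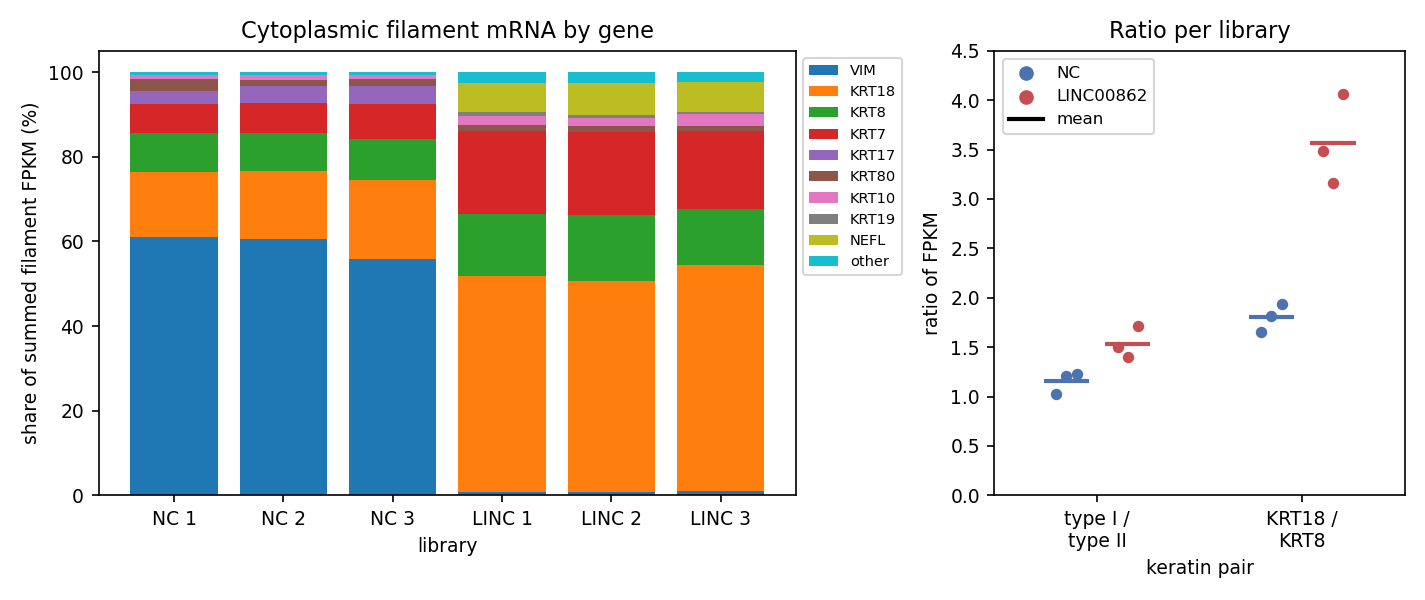
Left, share of each gene in the summed FPKM of 40 cytoplasmic filament genes in each library, in percent. Right, the ratio of type I to type II keratin FPKM and of KRT18 to KRT8 FPKM in each library, with a line at the mean. VIM took 55.9% to 61.1% of the sum in NC and 0.792% to 1.01% in LINC00862, and both ratios were higher in every LINC00862 library.

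As a share of the summed FPKM of 40 cytoplasmic intermediate filament genes, VIM gave way to the simple epithelial keratins. The sum itself was 787, 942 and 1009.3 in NC and 461, 440 and 380 in LINC00862. VIM took 61.1%, 60.6% and 55.9% of it in NC and 0.792%, 0.866% and 1.01% in LINC00862. KRT18 took 15.2%, 16.1% and 18.7% in NC and 51.0%, 49.7% and 53.4% in LINC00862. KRT7 took 6.82% to 8.29% in NC and 18.4% to 19.7% in LINC00862, and KRT8 took 8.83% to 9.66% and 13.2% to 15.7%. These shares sum to the whole, so a fall of VIM raises those of the others.

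The balance between the keratin types also shifted. Type I over type II keratin FPKM was 1.03, 1.21 and 1.23 in NC and 1.5, 1.4 and 1.71 in LINC00862. For the obligate pair, KRT18 over KRT8 was 1.65, 1.82 and 1.94 in NC and 3.49, 3.16 and 4.06 in LINC00862, a 1.97-fold difference. VIM over the summed keratins was 1.59, 1.55 and 1.28 in NC and 0.00873, 0.00963 and 0.0112 in LINC00862, a 150-fold difference. None of the 3 ratios overlapped between the groups, and each gave p = 0.1 in the exact two-sided permutation test, the smallest p that 3 libraries against 3 allow. KRT8 and KRT18 overlap by 1050 bases on opposite strands, which bears on their ratio if the reads were counted without regard to strand.

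The 21 other keratin genes listed included 9 that were tested, of which 3 rose, 3 fell and 3 were not called. Their median log2 fold change was -0.69, and 64.2% of all genes tested were called. KRT17, a type I keratin of basal and stressed epithelium, had an FPKM of 25.8, 36.2 and 41.5 in NC and 0.501, 0.673 and 0.507 in LINC00862, with a log2 fold change of -5.75 (SE 0.27, adjusted p = 3.33e-07, edgeR). KRT34, a hair-type keratin of type I, fell from 0.842, 1.32 and 1.52 to at most 0.0299 (log2 fold change -5.76, adjusted p = 0.000145). KRT10, the type I keratin of the differentiating epidermis, overlapped between the groups at 6.24 to 11.5 and 8.00 to 10.6 and was not called (log2 fold change 0.18, adjusted p = 0.588). The remaining calls, named after their values were seen, were KRT38, at least 6.84-fold higher, and KRT33B, at least 5.52-fold lower. KRT15 and KRT16 were not called. KRT15, the nearest neighbour of KRT19 at lower coordinates, had 27, 41 and 33 counts in NC and 8, 10 and 38 in LINC00862, and KRT14, on the other side, had at most 4 counts in any library. EIF4B, a translation initiation factor gene and the nearest gene beyond KRT18, rose with a log2 fold change of 0.70 (SE 0.18, adjusted p = 0.00685), while its FPKM overlapped between the groups.

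**Figure D3:**
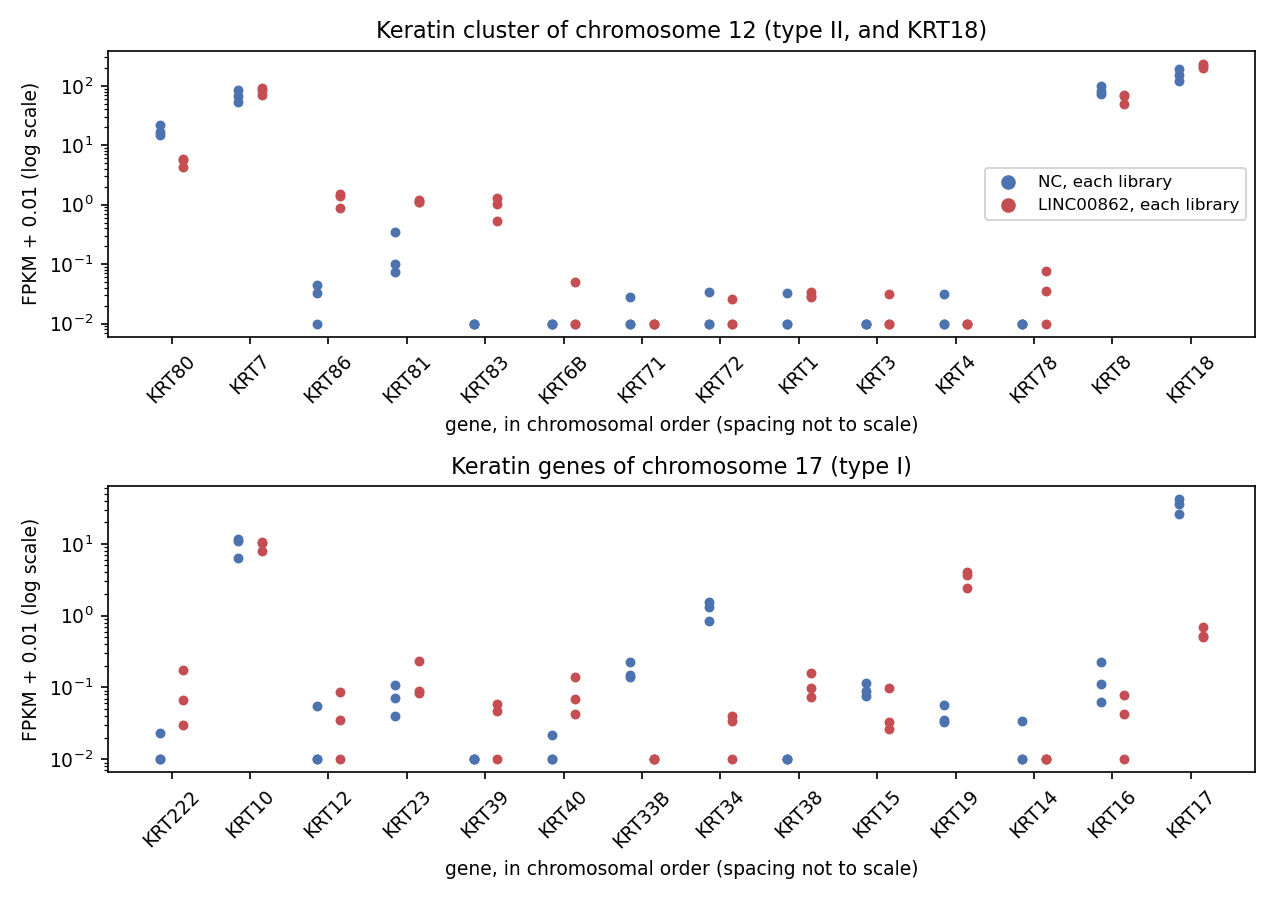
FPKM plus 0.01, on a log axis, of the keratin genes listed on chromosome 12 (top) and chromosome 17 (bottom) in each library, in chromosomal order, with NC in blue and LINC00862 in red. KRT86, KRT81 and KRT83 were each higher in LINC00862, between KRT7, whose groups overlapped, and KRT8, and on chromosome 17 KRT19 was higher while KRT17 and KRT34 were lower.

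Beyond the keratins, most filament genes typical of other tissues rose, whereas the lamins fell. Of 10 other cytoplasmic filament genes, 8 were tested, and 6 rose, 1 fell and 1 was not called. Over all genes tested, 34.4% rose and 29.8% fell. The median log2 fold change of the 8 was 5.28, or 4.75 with genes at 0 in NC set at their bound. NEFL, the light neurofilament chain, had an FPKM of 0.118, 0.060 and 0.030 in NC and 32.2, 33.1 and 26.5 in LINC00862 (log2 fold change 8.91, SE 0.36, adjusted p = 1.48e-07, edgeR), and took 6.97% to 7.52% of the filament sum there. PRPH (peripherin, of peripheral neurons), GFAP (of astrocytes) and BFSP1 (of the lens) rose with log2 fold changes of 5.51, 5.05 and 2.10. They stayed low, with mean FPKM of 1.77, 0.422 and 1.0 in LINC00862. NEFM and BFSP2 were counted 0 times in each NC library and were at least 67.8-fold and 21.8-fold higher in LINC00862. Their mean FPKM there was 0.748 and 0.427, so of the genes that rose only NEFL reached a high level. INA, the neuronal alpha-internexin, fell, with 49, 48 and 14 counts in NC and 0, 0 and 4 in LINC00862. SYNM, which copolymerises with vimentin, was not called (log2 fold change -0.10, adjusted p = 0.621). DES (desmin) and NEFH did not pass the filter.

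The nuclear lamins fell in every case tested, against 29.8% of all genes. LMNA, which encodes the A-type lamins, LMNB1 and LMNB2 had log2 fold changes of -3.06, -2.88 and -2.16, with adjusted p of 2.19e-06, 6.86e-07 and 1.05e-05. The summed lamin FPKM lay between 164 and 199 in NC and between 21.7 and 28.6 in LINC00862.

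**Figure D4:**
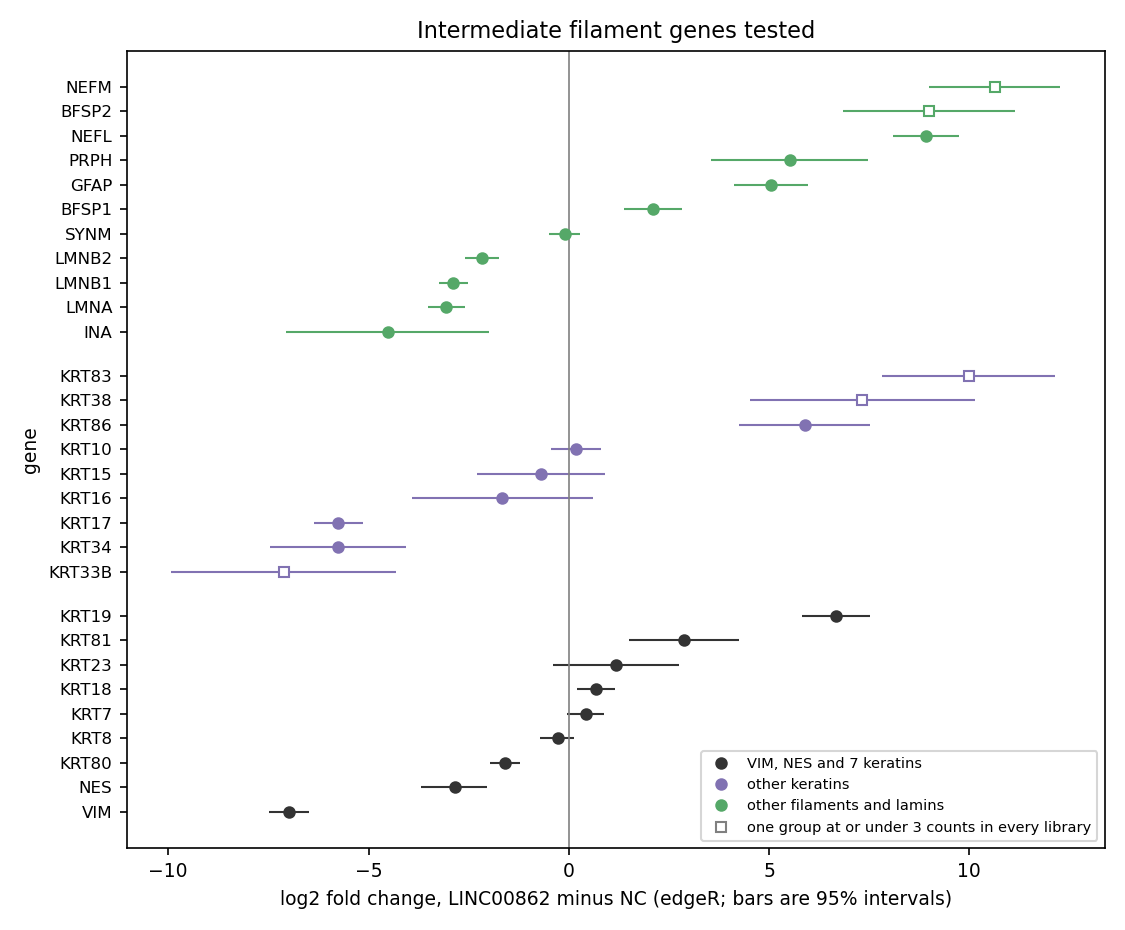
Log2 fold change (LINC00862 minus NC) of every intermediate filament gene tested, with 95% intervals from edgeR. Open squares are genes with at most 3 counts in every library of 1 group, whose fitted value depends on the prior count. VIM lies at -6.99, KRT19 at 6.67 and NEFL at 8.91, and the 3 lamins are all below 0.

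Of 7 cytolinker genes, whose plakin proteins tie filaments to junctions and to other cytoskeletal polymers, 2 rose, 4 fell and 1 was not called. The share called over all genes tested was 64.2%. Desmoplakin (DSP), which anchors keratins at desmosomes, rose with a log2 fold change of 3.68 (SE 0.27, adjusted p = 4.22e-06, edgeR) and envoplakin (EVPL) with 7.48. Plectin (PLEC), PPL, MACF1 and EPPK1 fell with log2 fold changes of -1.80, -4.12, -1.53 and -1.06. PPL is periplakin, the partner of envoplakin at the cornified envelope, so the partners moved in opposite directions. DST was not called.

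Of 15 genes for filament binding, chaperoning and turnover, 6 rose, 4 fell and 5 were not called, against 64.2% called over all genes. The median log2 fold change of the 15 was -0.18. Large rises were those of JUP (plakoglobin, log2 fold change 2.67) and KLHL24 (a ubiquitin ligase adaptor for keratin 14, 2.04). The largest falls were PKP1 (plakophilin 1, counted 0 times in each LINC00862 library and at least 20.2-fold lower), SFN (14-3-3 sigma, -2.11) and PKP2 (plakophilin 2, -1.78).

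Markers of some other cell types also differed between the groups, and their part in the results was not tested. For scale, 64.2% of all genes tested were called. Of 8 biliary markers, the class to which KRT7 and KRT19 also belong, 5 rose and 2 fell, and their summed FPKM lay between 72.5 and 84.1 in NC and between 170 and 192 in LINC00862. EPCAM, an epithelial adhesion protein, rose from 0.547 ± 0.0819 to 160 ± 10.8 FPKM (SD, n = 3), while SOX9 fell. Of 8 markers of fibroblasts, which also express VIM, 2 rose (COL1A1 and LUM), 3 fell (THY1, PDGFRB and FAP) and 3 were not called, and the sum lay between 45.7 and 56.6 in NC and between 11.9 and 15.9 in LINC00862, most of the NC sum being THY1. COL1A2, COL3A1 and DCN had at most 1 FPKM as a mean in either group. Of 4 endothelial markers, 1 rose (CDH5) and 3 were not called, with sums of 1.17 to 1.74 in NC and 4.44 to 5.89 in LINC00862. Of 5 immune markers, 1 rose (CD68) and 4 were not called, with sums of 2.05 to 2.22 in NC and 4.94 to 9.68 in LINC00862. PTPRC, the defining marker of leukocytes, had a mean FPKM of 0.283 in NC and 0.198 in LINC00862.

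The genes whose values ran most like VIM over the 6 libraries were SLC43A3, NOG and GSTP1, at root mean square distances of 0.145, 0.149 and 0.152 in log2(FPKM + 0.1) after centring each gene on its mean. GSTP1, a glutathione transferase, had a mean FPKM of 129 in NC and 0.789 in LINC00862, and SLC43A3, a purine transporter, 43.7 and 0.184. Those nearest to KRT19 were LINC02761 and CAMSAP3, at distances of 0.1 and 0.114. CAMSAP3, which binds microtubule minus ends in epithelial cells, rose from a mean FPKM of 0.0606 to 4.48. The distances rest on 2 groups, so they mostly describe the size of the difference between the groups.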

How the data were processed

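Polyadenylated RNA of 6 libraries was sequenced. The authors deposited one table with a read count per gene, without normalization, and FPKM, scaled by the authors for transcript length and library size. The submitters' notes name hg38, cutadapt 1.9, HISAT2 2.0.4, UMI-tools, StringTie 1.3.4d, DESeq2 and edgeR without their roles, and whether molecular identifiers were collapsed is not stated. Floors of 3 counts cover counting error only.

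Groups came from the sample labels. After filterByExpr and TMM scaling, LINC00862 was compared with NC in edgeR 4.0.16 (R 4.3.3, quasi-likelihood test), and p-values were adjusted by the Benjamini-Hochberg method with 0.05 as the threshold. Standard errors were derived from the test statistic. Ratios of FPKM were compared by exact permutation. No library was a copy of another. Same-numbered libraries did not deviate together, so no block was used. The test was run on simulated counts with 200 changed genes, evenly up and down. Far more genes were called in the data, so that run does not show how the test or the scaling behaves here.

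The listed genes and gene lists were chosen with earlier results of these data known. Genes named are the listed ones, other keratins whose mean FPKM reached 1 in a group, genes of the lists (of lists over 10 genes, the 3 largest rises and falls called), overlapping or adjacent genes, the overexpressed gene, and the 3 genes most like VIM and KRT19. Some items that this rule takes in are not reported here. Promoters came from RefSeq (GRCh38.p14), transcripts from GENCODE 29. Positions are as deposited, and 3 of the 9 genes have identical coordinates in GENCODE 29, while the others differ in start or end. Alternatives were DESeq2 1.42.0, upper quartile and library size scaling, every gene with at least 1 count, a replicate block, leaving out each library, limma-trend (3.58.1) on log2(FPKM + 1) and log2(FPKM + 0.1), a false discovery rate of 0.01, added near copies, and ratios over genes whose mean FPKM reached 1. Python 3.11.15 with pandas 2.3.3 drew the tables and figures. Columns of pathway annotation were not used.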

Additional observations from a re-analysis of the deposited data

How the results depend on the processing

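Among the log2 fold changes of the 9 genes, 124 values under the alternatives kept their direction and their side of the threshold, 3 passed it newly, 3 no longer passed it and 0 reversed. The 112 counts of genes called stayed within 1.5 times the reported count, and the 21 ratios of FPKM, which have no threshold they could pass, moved by less than 1 SD between libraries. VIM, NES, KRT19, KRT80 and KRT81 kept their calls under every alternative run, and KRT23 stayed uncalled, between 0.44 and 1.71 when single libraries were left out. KRT7 passed with upper quartile scaling (0.62). KRT18 no longer passed at a false discovery rate of 0.01 (0.67). Leaving out each library in turn, KRT7 lay between 0.23 and 0.62, KRT8 between -0.42 and -0.13, and KRT18 between 0.49 and 0.89, and the calls changed without NC replicate 3 for KRT7, without NC replicate 1 for KRT8, and without LINC00862 replicate 1 or NC replicate 2 for KRT18. The cause was not tested.

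The replicate block changed no call of these genes, and KRT18 was 0.71 (adjusted p = 0.0353 from edgeR with the block). Of all genes, 6807 rose and 6996 fell with limma-trend on log2(FPKM + 0.1), so that, as by library size alone, more fell than rose. Of the cytolinker, binding and turnover genes, 11 fell by library size alone against 8 with TMM. With the block, 6542 genes rose and 5556 fell, against 7145 and 6176 without it. The correlations of the deviations of same-numbered libraries were -0.0408, -0.01986 and -0.003876. These gave no sign of pairing, but with 3 libraries per group they cannot show that same-numbered libraries were prepared apart. The median log2 fold change of all genes was 0.11 with TMM, 0.32 by upper quartile and -0.05 by library size alone, and small differences such as that of KRT8 (-0.08 and -0.43 there) move with it. On log2(FPKM + 1), low genes are compressed, with NES at -0.57 and KRT81 at 0.87. KRT19 in NC, at 4 to 8 counts, is limited by depth. The floors of genes with 0 counts limit only the reported bounds.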
